A study of Mus musculus with 9 samples.

Results

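Neurotrophins and ciliary neurotrophic factor (CNTF) act on retinal ganglion cells (RGCs), the neurons whose axons form the optic nerve. The 9 genes examined here encode ligands and receptors of these signals, namely Bdnf, Ntf3, Ntrk2, Ntrk3, Ngfr, Cntf, Cntfr, Lifr and Il6st. They were chosen by gene symbol among the 23997 symbols listed for every library, with no threshold on their values but with earlier results of these data known. RGCs were purified by immunopanning for the surface protein Thy1 from retinas of C57BL/6J wild-type mice. Eyes had received an intracameral injection of saline (Control) or of microbeads, which raise intraocular pressure (IOP). Pressure was read 3 times per week for 2 weeks, and bead-injected eyes then formed a Mild IOP and a Moderate IOP group. Mice were injected at 6 weeks of age by the study's methods, and the samples are labelled as 8 weeks old. Both sexes were used, and the share of each sex in a pool is not given in the sources used here. All libraries came from oligo-dT-primed, amplified cDNA. Each group's RNA was combined into 1 pool that was split over 3 libraries, which gave 9 libraries in 3 groups. The replicates are technical, every p-value below measures the spread between libraries of 1 pool, and a difference between groups is a difference between pools.

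Neurotrophins are secreted peptides that bind Trk receptor tyrosine kinases and the low-affinity receptor p75. BDNF binds TrkB (Ntrk2), NT-3 (Ntf3) binds TrkC (Ntrk3) with preference, and p75 (Ngfr) binds all of them. CNTF belongs to the interleukin-6 family of cytokines and signals through a complex of CNTF receptor alpha (Cntfr), which has no signalling domain of its own, with LIF receptor (Lifr) and gp130 (Il6st). That complex activates JAK kinases, which phosphorylate STAT3, and STAT3 induces SOCS3, an inhibitor of the same receptor. BDNF and CNTF are known as survival and axon growth factors of RGCs, and astrocytes and Müller glia are known sources of CNTF in the retina.

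The data were FPKM, fragments per kilobase of transcript relative to all mapped fragments, scaled between libraries by factors of 0.983 to 1.06. FPKM is divided by transcript length. Where levels of different genes are set side by side below, their order rests on the transcript lengths that the estimate assumed. All levels below are of mRNA, also where a gene is introduced by the name of its protein, and protein levels were not measured here. The files give no library totals. Relative depth derived from the confidence bounds lay between 0.769 (Moderate IOP replicate 1) and 1.38 (Control replicate 2), and 14182 to 14914 symbols were above 0. A single gene took 20.5% of the summed FPKM in Mild IOP replicate 2 and 9.14% in Moderate IOP replicate 3, and 1.87 to 3.59% in the other libraries. All 14 RGC markers were detected, with a summed level of 1902 to 2067 in Control, 1446 to 1787 in Mild IOP and 2890 to 3150 FPKM under Moderate IOP. Markers of other retinal cells were present as well. The 11 amacrine markers summed to 1818 to 1934, 1863 to 2076 and 1419 to 1593 FPKM in the same order of groups. The 10 rod markers summed to 504 to 596, 334 to 370 and 338 to 387 FPKM, and the 8 lens markers to 305 to 368 FPKM in Control against 0.602 to 5.71 FPKM in the other libraries. In bulk RNA, fewer cells of a type and less RNA per cell cannot be told apart.

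No gene of the 9 passed the test in any comparison. The mRNA of STAT3, the transcription factor downstream of the CNTF receptor, stood in Moderate IOP at 2.35-fold its Control level. Stat3 is named here because it was among the few called of the further pathway genes described below. limma at a false discovery rate (FDR) below 0.1, adjusted over all 13043 genes tested, called 0 of the 8 tested members in Mild IOP against Control, where it called 0.399% of all genes. It called 0 of 8 in Moderate IOP against Control (1.84% of all genes) and 0 of 8 in Moderate IOP against Mild IOP (10.2% of all genes). At an unadjusted p below 0.05 the counts were 0, 2 (Ntrk3 and Cntfr) and 1 (Bdnf), against 10.2, 15.3 and 21.8% of all genes. Cntf, at or near 0 in all 9 libraries, was not tested. The median log2 fold-change of the 8 members was -0.19, 0.10 and 0.02 in the 3 comparisons, and that of all genes tested was 0.0062, 0.0040 and -0.02. Mild IOP and Moderate IOP were compared with the same Control libraries. Log2 fold-changes are those of log2(FPKM + 1) and understate changes of low genes.

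**Figure D1:**
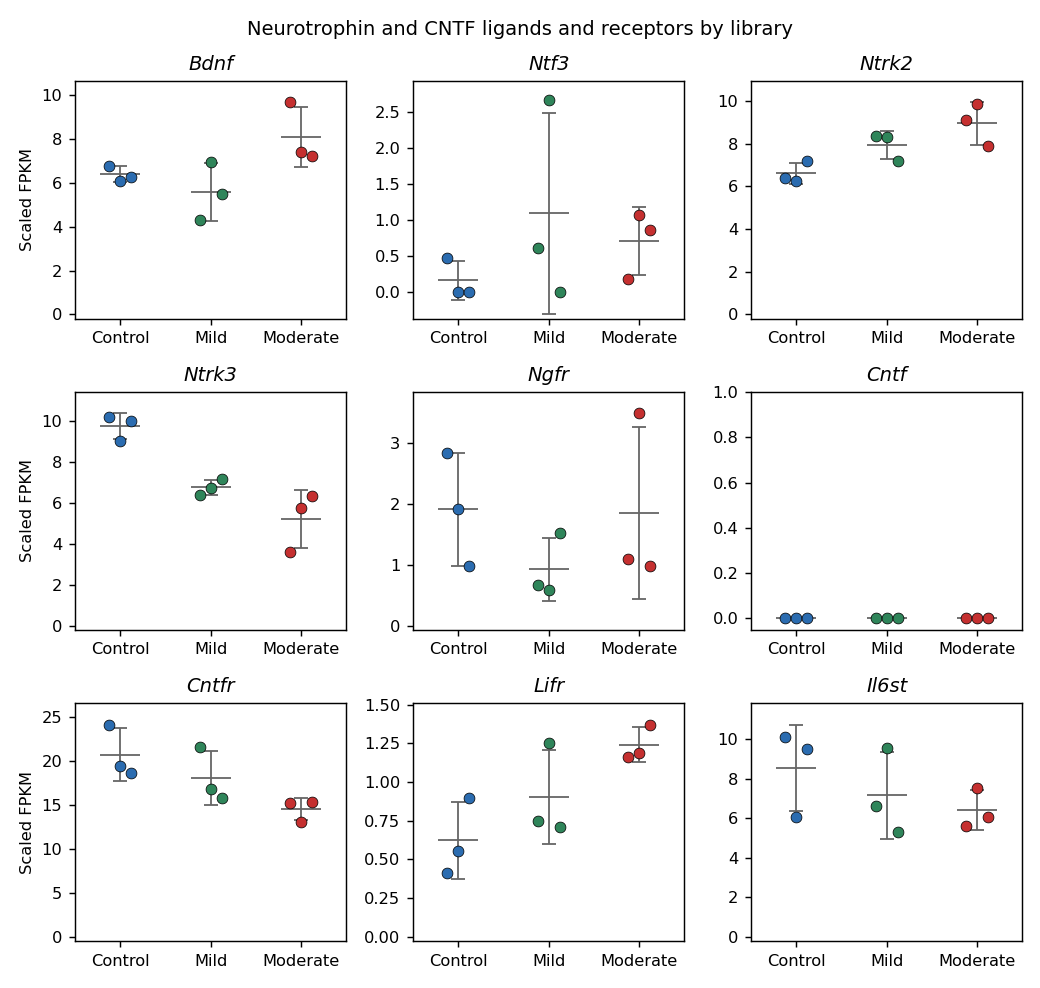
Scaled FPKM (y axes, each panel on its own scale) of the 9 genes in Control, Mild IOP and Moderate IOP (x axes). Points are the 3 libraries of a group, horizontal lines their mean and error bars the SD. Ntrk3 lies lowest in Moderate IOP and highest in Control with no shared range, and Cntf sits at 0 throughout.

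BDNF, the ligand of TrkB, was measured at a moderate level in all 9 libraries. Bdnf (mm10 chr2:109674700-109727043) stood at 6.78, 6.08 and 6.28 in Control, 4.31, 6.95 and 5.46 in Mild IOP and 9.67, 7.41 and 7.20 FPKM under Moderate IOP. The 3 Moderate IOP libraries lay above all others, while the Mild IOP libraries spread around the Control range. The means were 6.38 ± 0.363 (SD, n = 3), 5.58 ± 1.32 and 8.09 ± 1.37 FPKM. The log2 fold-change of Moderate IOP against Mild IOP was 0.48 (95% confidence interval 0.0047 to 0.95) with an FDR of 0.225. Against Control it was 0.29 (-0.18 to 0.76, FDR = 0.553) in Moderate IOP and -0.18 (-0.66 to 0.29, FDR = 0.844) in Mild IOP. Each value rests on 112 to 255 derived fragments, and the gene-level FPKM sums transcripts from 9 annotated start sites.

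Bdnf has several promoters, which respond to different signals, and RefSeq places 7 of its start sites in the promoter table used here. The upstream sequence of the first is shown because it alone among 21 start sites of 8 members held the letters TTCNNNGAA, the palindrome that activated STAT dimers recognise. It covers the 250 bases before the start (GRCm38.p6 chr2:109674450-109674699, plus strand), and the capitals, whose first base is at position -122, mark the match.
Bdnf: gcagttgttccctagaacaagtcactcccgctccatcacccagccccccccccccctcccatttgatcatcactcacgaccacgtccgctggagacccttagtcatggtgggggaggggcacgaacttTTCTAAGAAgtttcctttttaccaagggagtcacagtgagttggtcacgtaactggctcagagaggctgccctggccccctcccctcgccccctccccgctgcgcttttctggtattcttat
Of 32851 such windows of all genes, 7.02% held TTCNNNGAA. TGACGTCA, the palindromic form of the cyclic AMP response element, was in 1.55% of all windows and in 0 of the 21. Variants of these letters were not searched. The Bdnf window at chr2:109692186-109692435 holds TCACGTCA, which the search did not count. TGANTCA, a pattern wider than the AP-1 element TGA(C/G)TCA, was in 6.75% of all windows and in 2 of the 21. The match at another Bdnf start site reads TGAATCA, which is not that element, and the match at Cntf reads TGACTCA, which is. Both strands were searched, no matches overlapped, and Ntrk3 has no entry. A match describes letters and not a bound site.

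NT-3, the preferred ligand of TrkC, was close to the limit of detection. Ntf3 (chr6:126101412-126166744) was listed at 0.476, 0 and 0 in Control, at 0.611, 2.67 and 0 in Mild IOP and at 0.178, 1.08 and 0.863 FPKM under Moderate IOP. The groups overlapped. No library held more than 19.4 derived fragments of Ntf3, and its log2 fold-changes were 0.67 (-0.34 to 1.67, FDR = 0.689) in Mild IOP and 0.54 (-0.46 to 1.55, FDR = 0.615) in Moderate IOP against Control. Without Mild IOP replicate 2, which holds the highest value, Ntf3 no longer reached the mean of 0.5 FPKM required for testing. A difference was not detectable at this depth.

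The mRNA of TrkB, the BDNF receptor, was measured at similar levels to that of its ligand. Ntrk2 (chr13:58806569-59133970) stood at 6.40, 6.24 and 7.186 in Control, 8.34, 8.30 and 7.188 in Mild IOP and 9.12, 9.85 and 7.88 FPKM under Moderate IOP. All Moderate IOP libraries lay above all Control libraries, and the lowest Mild IOP library was separated from the highest Control library only in the fourth digit. The mean was 6.61 ± 0.507 in Control, 7.94 ± 0.656 in Mild IOP and 8.95 ± 0.995 FPKM under Moderate IOP, 1.35-fold the Control mean. The log2 fold-change against Control was 0.23 (-0.16 to 0.63, FDR = 0.737) in Mild IOP and 0.38 (-0.01 to 0.78, FDR = 0.342) in Moderate IOP. Full-length TrkB and the truncated TrkB that lacks the kinase domain share this locus, and gene-level FPKM does not separate them.

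TrkC, the NT-3 receptor, came nearest to the threshold. Ntrk3 (chr7:78192114-78577838) stood at 10.2, 9.02 and 10.04 in Control, 6.41, 6.75 and 7.16 in Mild IOP and 3.61, 5.74 and 6.32 FPKM under Moderate IOP. Every Control library lay above every Mild IOP library, and every Mild IOP library above every Moderate IOP library. Of all genes tested, 40 (0.307%) had this full order, and 31 (0.238%) the opposite one. The mean of 9.75 ± 0.637 FPKM in Control compared with 6.77 ± 0.376 FPKM in Mild IOP and 5.22 ± 1.43 FPKM under Moderate IOP, or 0.695-fold and 0.535-fold the Control mean. The log2 fold-change was -0.47 (-0.94 to 0.0040, FDR = 0.497) in Mild IOP and -0.82 (-1.29 to -0.34, FDR = 0.117) in Moderate IOP. Between Moderate IOP and Mild IOP it was -0.35 (-0.82 to 0.12, FDR = 0.382). Over 20 alternative settings, the FDR of Ntrk3 in Moderate IOP against Control stayed between 0.108 and 0.281 and its log2 fold-change between -0.95 and -0.61. The lowest value, in Moderate IOP replicate 1, rests on 49.7 derived fragments, the fewest of the 9 libraries. The summed amacrine markers were also lowest in Moderate IOP and the summed rod markers were lower in both IOP groups than in Control, as given above. Their part in the Ntrk3 levels was not tested. TrkC likewise occurs in kinase and truncated forms that are summed here.

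**Figure D2:**
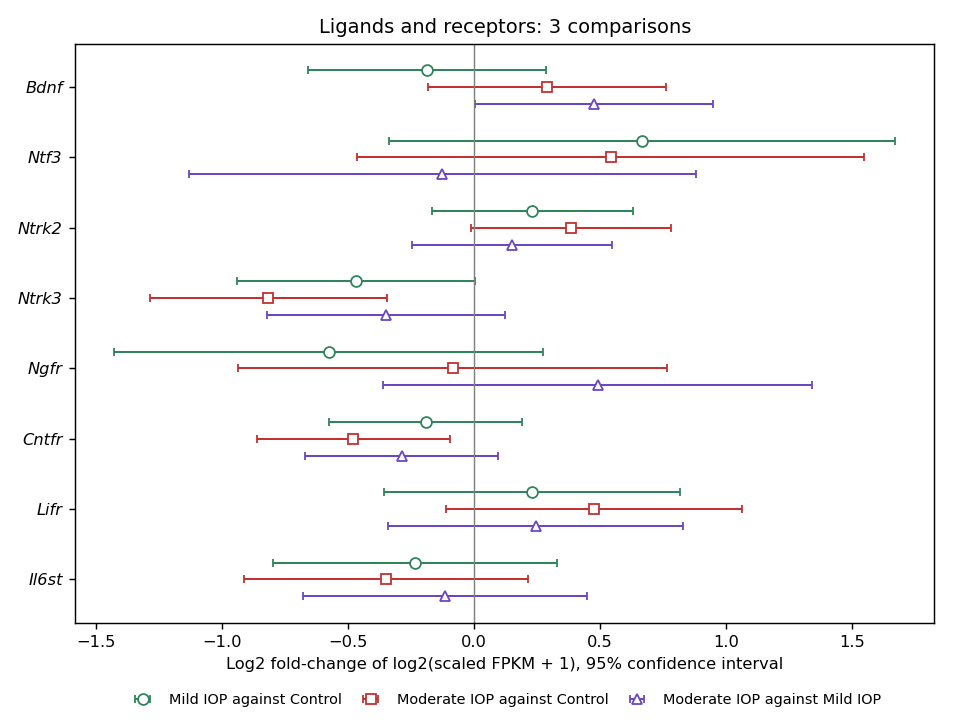
Log2 fold-change (x axis) of log2(scaled FPKM + 1) for the 8 tested genes (y axis) in 3 comparisons, each with its 95% confidence interval. Symbols are open since no FDR was below 0.1, and the interval of Ntrk3 in Moderate IOP against Control, -1.29 to -0.34, lies farthest from 0.

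The opposite placement of both Trk receptors gave a ratio of Ntrk2 to Ntrk3 that separated Control from the IOP groups. Within each library it was 0.628, 0.692 and 0.716 in Control, 1.30, 1.23 and 1.00 in Mild IOP and 2.53, 1.72 and 1.25 in Moderate IOP. Ntrk3 had the higher FPKM in every Control library and Ntrk2 in every library of the IOP groups. By derived fragments Ntrk2 was above Ntrk3 in every Control library as well (366, 424 and 303 against 198, 221 and 140). The order by FPKM in Control thus rests on the length correction of both genes. In Mild IOP replicate 3 they were nearly equal, with Ntrk2 at 7.188 and Ntrk3 at 7.160 FPKM. The mean ratio was 0.678 ± 0.0454 (SD, n = 3), 1.18 ± 0.155 and 1.83 ± 0.649. Mild IOP and Moderate IOP overlapped. The ratio was set up with the values of both genes known and was given no test.

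p75, the low-affinity neurotrophin receptor, was low and variable. Ngfr (chr11:95568821-95587698) stood at 2.83, 1.91 and 0.977 in Control, 0.668, 0.583 and 1.52 in Mild IOP and 1.09, 3.48 and 0.973 FPKM under Moderate IOP. The groups overlapped in all 3 comparisons, and Moderate IOP replicate 2, the deepest library of its group, held the highest value. The log2 fold-change against Control was -0.58 (-1.43 to 0.28, FDR = 0.680) in Mild IOP and -0.08 (-0.93 to 0.77, FDR = 0.944) in Moderate IOP. These wide intervals rest on 13.3 to 104 derived fragments per library.

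CNTF itself was not measurable by the deposited values. Cntf (chr19:12763528-12765632) was listed at no more than 1.72e-06 FPKM in any library. Its locus lies inside that of Zfp91Cntf (chr19:12763528-12796123), a readthrough transcript that joins the zinc finger gene Zfp91 to Cntf. Zfp91Cntf was listed at 0.634, 4.99 and 7.65 in Control, 3.92, 2.30 and 3.52 in Mild IOP and 7.15, 7.70 and 4.78 FPKM under Moderate IOP. Control alone spanned almost the whole range of the readthrough locus, and Zfp91, which shares the remaining part, ranged from 1.67 to 7.33 FPKM. Fragments from Cntf exons may be assigned to any locus that contains them, so whether RGCs in these pools held Cntf mRNA cannot be told from the gene-level values. Sums of the 6 astrocyte markers were 2.60 to 6.23, 2.63 to 3.04 and 4.91 to 8.13 FPKM in the 3 groups.

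**Figure D3:**
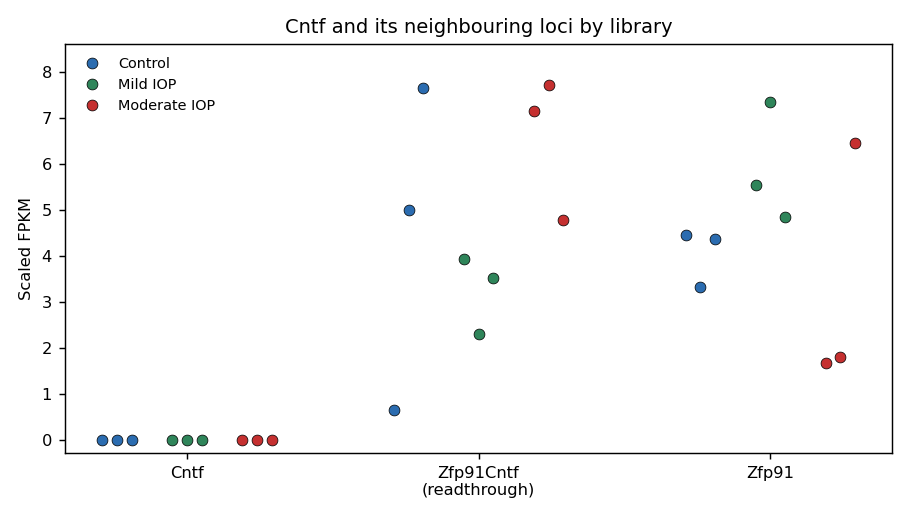
Scaled FPKM (y axis) of Cntf, the readthrough locus Zfp91Cntf and Zfp91 (x axis) in the 9 libraries, coloured by group. Cntf is at 0 in all libraries, while Zfp91Cntf runs from 0.634 to 7.70 FPKM with overlapping groups.

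The 250 bases before the annotated start of Cntf itself (GRCm38.p6 chr19:12765633-12765882, minus strand) are shown because this start lies within the readthrough locus, and the capitals, from position -245, mark its AP-1 element.
Cntf: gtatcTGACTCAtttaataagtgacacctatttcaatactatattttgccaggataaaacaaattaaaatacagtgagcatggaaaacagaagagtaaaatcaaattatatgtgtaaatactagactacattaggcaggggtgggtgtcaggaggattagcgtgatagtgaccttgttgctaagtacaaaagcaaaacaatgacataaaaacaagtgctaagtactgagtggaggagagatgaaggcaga

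The 3 receptor subunits that CNTF needs were all detected, at very different levels. CNTF receptor alpha was the most abundant mRNA of the set. Cntfr (chr4:41657498-41697091) stood at 24.2, 19.5 and 18.7 in Control, 21.6, 16.9 and 15.8 in Mild IOP and 15.2, 13.1 and 15.4 FPKM under Moderate IOP. The Moderate IOP libraries lay below all others, and Mild IOP overlapped with Control. The means were 20.8 ± 3.00 (SD, n = 3), 18.1 ± 3.09 and 14.6 ± 1.28 FPKM, so that Moderate IOP was at 0.702-fold the Control mean. The log2 fold-change was -0.48 (-0.86 to -0.09, FDR = 0.230) in Moderate IOP and -0.19 (-0.58 to 0.19, FDR = 0.785) in Mild IOP against Control. It was -0.29 (-0.67 to 0.10, FDR = 0.378) between Moderate IOP and Mild IOP. Over the alternative settings the FDR of Cntfr in Moderate IOP against Control ranged from 0.202 to 0.480.

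The mRNA of LIF receptor, the subunit that pairs with gp130, was scarce. Lifr (chr15:7129572-7197489) stood at 0.412, 0.555 and 0.899 in Control, 0.749, 1.25 and 0.708 in Mild IOP and 1.16, 1.19 and 1.37 FPKM under Moderate IOP. Moderate IOP lay above Control without overlap, at a mean of 1.24 ± 0.114 against 0.622 ± 0.250 FPKM, a ratio of 1.99. Its log2 fold-change was 0.48 (-0.11 to 1.06, FDR = 0.426) in Moderate IOP and 0.23 (-0.36 to 0.82, FDR = 0.843) in Mild IOP, on 20.8 to 90.2 derived fragments per library.

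The shared signalling subunit gp130 overlapped between all groups. Il6st (chr13:112464070-112506860) stood at 10.1, 6.06 and 9.50 in Control, 6.61, 9.57 and 5.31 in Mild IOP and 5.61, 7.56 and 6.08 FPKM under Moderate IOP. The log2 fold-change was -0.23 (-0.80 to 0.33, FDR = 0.831) in Mild IOP and -0.35 (-0.91 to 0.22, FDR = 0.553) in Moderate IOP against Control. The amount of gp130 mRNA per LIF receptor mRNA was 15.3 ± 7.97, 7.98 ± 0.729 and 5.21 ± 1.02 in the 3 groups, with 24.6 in Control replicate 1 alone.

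Counting the groups that did not overlap, Ntrk2 lay higher and Ntrk3 lower in Mild IOP than in Control, 2 of 8 members against 17.1% of all genes (7.94% higher, 9.13% lower). Against Control, Moderate IOP had Bdnf, Ntrk2 and Lifr higher and Ntrk3 and Cntfr lower, 5 of 8 members against 19.4% of all genes (9.95% higher, 9.48% lower). Between the IOP groups, Bdnf lay higher and Ntrk3 and Cntfr lower, 3 of 8 members against 27.5% of all genes (14.5% higher, 13.0% lower).

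Ordered by level in Control, Cntfr stood apart at the top, above 69.5% of all genes tested. Ntrk3, Il6st, Ntrk2 and Bdnf followed with ranges that overlapped from one to the next, then Ngfr and, lower again, Lifr, Ntf3 and Cntf. In Moderate IOP the order of the middle group was Ntrk2, Bdnf, Il6st and Ntrk3, again with each overlapping the next, and Cntfr remained apart at the top.

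Other ligands of both families were low or listed at 0 in most libraries. Of 9 described here, 2 were tested and none was called by limma in any comparison, nor did any reach an unadjusted p below 0.05. Clcf1, which encodes a further ligand of the CNTF receptor complex, was at 2.1998 ± 2.30, 1.89 ± 1.35 and 0.416 ± 0.366 FPKM, on no more than 14 derived fragments per library. Ctf1 (cardiotrophin-1) was at 1.46 ± 0.776, 1.22 ± 0.371 and 1.49 ± 0.392 FPKM. The level of Lif was 0 except for 0.131 FPKM in Mild IOP replicate 3, and Ctf2 was listed at 0 throughout.

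Among 8 further receptors and sorting receptors, 6 were tested, 0 were called by limma against Control in either IOP group, and 1 (Sorcs2, with Moderate IOP) had an unadjusted limma p below 0.05. Sorcs2, a Vps10p-domain receptor that binds pro-neurotrophins together with p75, has a locus that overlaps that of Psapl1, so its counts are uncertain. It stood at 17.3, 19.6 and 18.2 in Control, 21.1, 24.1 and 17.2 in Mild IOP and 11.6, 11.98 and 13.6 FPKM under Moderate IOP. The Moderate IOP libraries were lower than all others, and Sorcs2 fell by 0.70 on the log2 scale (SE 0.17, FDR = 0.0346) from Mild IOP to Moderate IOP. The call was lost without Mild IOP replicate 1 and without Mild IOP replicate 2. Sortilin (Sort1), the best known sorting receptor of pro-BDNF, was at 11.0 ± 1.31, 13.9 ± 0.288 and 9.70 ± 3.11 FPKM. Its log2 fold-change of Moderate IOP against Mild IOP was -0.51 (-0.97 to -0.05, FDR = 0.188). The receptors Osmr and Il6ra were listed at 0 in all Control libraries and were near 0 elsewhere. Osmr was above 0 only in Mild IOP (at most 0.107 FPKM), and Il6ra only in Moderate IOP replicate 3 (0.403 FPKM).

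Few pathway genes were called in comparisons with Control, and these were gp130 effectors or inhibitors. Of 110 further pathway genes in 7 lists, 91 were tested. limma called 0 of them in Mild IOP against Control, where the counts at an unadjusted p below 0.05 were 4 higher and 4 lower. In Moderate IOP against Control it called 3 (3.30%), 1 higher and 2 lower, all among the 13 tested gp130 effectors and inhibitors, against 1.84% of all genes. In Moderate IOP against Mild IOP it called 10 (11.0%), 5 higher and 5 lower, against 10.2% of all genes. The median log2 fold-change of the gp130 list was -0.14 and -0.14 in those comparisons, beside 0.0040 and -0.02 for all genes.

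The mRNA of STAT3, the main transcription factor activated by CNTF, rose in Moderate IOP. Stat3 (chr11:100886810-100939511) stood at 7.12, 7.48 and 7.80 in Control, 11.4, 7.21 and 9.96 in Mild IOP and 17.2, 21.3 and 14.1 FPKM under Moderate IOP. The Moderate IOP libraries lay above all others. Its log2 fold-change was 1.11 (SE 0.21, FDR = 0.0405) against Control and 0.82 (SE 0.21, FDR = 0.0468) against Mild IOP. The call against Control was kept in 17 of 20 alternative settings and lost without Control replicate 1, Control replicate 2 or Moderate IOP replicate 2. That against Mild IOP was lost without Mild IOP replicate 2, Moderate IOP replicate 1 or Moderate IOP replicate 2.

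Socs2, which encodes an inhibitor of JAK-STAT signalling, rose from Mild IOP to Moderate IOP. It stood at 8.63, 14.9 and 12.2 in Control, 9.002, 10.5 and 13.7 in Mild IOP and 20.3, 24.7 and 18.0 FPKM under Moderate IOP. The Moderate IOP libraries lay above all others. The log2 fold-change was 0.87 (SE 0.23, FDR = 0.0493) against Mild IOP, a call lost without replicate 1 or 2 of Mild IOP or of Moderate IOP. Against Control it was 0.79 (0.29 to 1.29, FDR = 0.150).

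The mRNAs of PIAS1 and PIAS3, SUMO ligases that inhibit STAT factors, fell in Moderate IOP against Control. Pias1 stood at 51.9, 50.1 and 56.8 in Control, 47.4, 48.6 and 51.6 in Mild IOP and 33.5, 33.8 and 36.4 FPKM under Moderate IOP. It was lower in Moderate IOP than in every other library, by a log2 fold-change of -0.60 (SE 0.12, FDR = 0.0488) against Control and -0.50 (SE 0.12, FDR = 0.0360) against Mild IOP. Pias3, whose locus overlaps that of Nudt17 so that its counts are uncertain, was at 8.13, 7.94 and 7.43 in Control, 5.77, 6.06 and 5.82 in Mild IOP and 3.69, 4.37 and 3.08 FPKM under Moderate IOP. The 3 groups were fully separated. Its log2 fold-change was -0.91 (SE 0.19, FDR = 0.0603) against Control and -0.56 (SE 0.19, FDR = 0.124) against Mild IOP. Against Control, the Pias1 call was kept in 14 and the Pias3 call in 13 of 20 alternatives. Both were lost in a fit of only the 2 groups compared and without Control replicate 1, Control replicate 2 or Moderate IOP replicate 1. Pias1 was also lost with no variance trend or without Moderate IOP replicate 2, and Pias3 with the replicate block or without Mild IOP replicate 1 or Moderate IOP replicate 3. The Pias1 call against Mild IOP was lost in 1 of 20, without Mild IOP replicate 2 (limma FDR = 0.107).

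Jak2 and Ptpn11, the remaining called genes of this list in Moderate IOP against Mild IOP, were named after their values were seen. Jak2, which encodes a kinase that phosphorylates STAT3, stood at 5.33, 4.82 and 4.99 in Control, 7.47, 9.12 and 6.70 in Mild IOP and 4.85, 4.27 and 2.496 FPKM under Moderate IOP. It was highest in Mild IOP, while Control and Moderate IOP overlapped. It fell by 0.87 on the log2 scale (SE 0.24, FDR = 0.0581) from Mild IOP to Moderate IOP, opposite in direction to Stat3. That call was lost in a fit of only the 2 groups compared and without Mild IOP replicate 1, Mild IOP replicate 2 or Moderate IOP replicate 3. Ptpn11, which encodes the phosphatase SHP2 that binds gp130, stood at 16.2 ± 0.973 FPKM in Mild IOP and 25.1 ± 2.74 FPKM under Moderate IOP, beside 18.6 ± 4.84 FPKM in Control. Its log2 fold-change between the IOP groups was 0.60 (SE 0.19, FDR = 0.0872), called in 10 of 20 alternatives. It was lost with no scaling, upper-quartile scaling, no filter, no variance trend or any Mild IOP or Moderate IOP library left out.

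**Figure D4:**
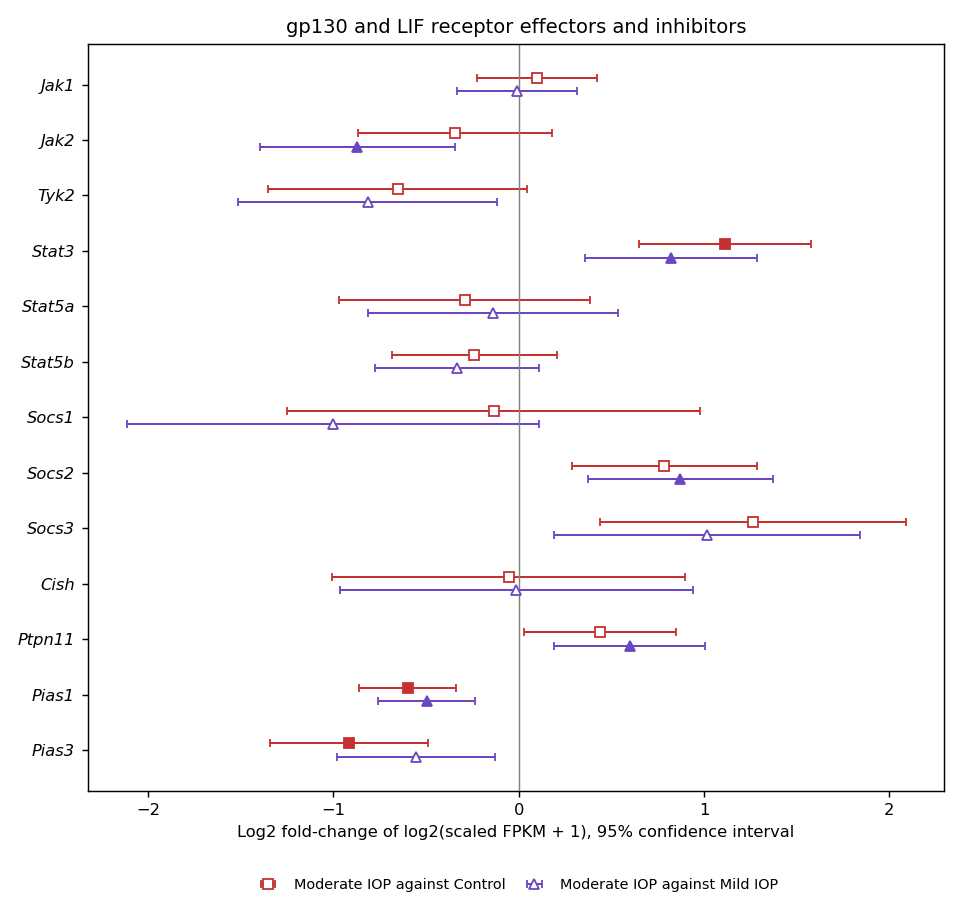
Log2 fold-change (x axis) of log2(scaled FPKM + 1) with its 95% confidence interval for the 13 tested genes that act below gp130 (y axis), in Moderate IOP against Control (squares) and against Mild IOP (triangles). Filled symbols passed an FDR below 0.1, with Stat3 to the right of 0 and Pias1 to the left in both comparisons.

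Socs3, the STAT3-induced inhibitor of gp130, did not pass the test and was singled out after its values were seen. It was at 0.661, 0.684 and 0.805 in Control, 1.34, 0.686 and 1.14 in Mild IOP and 2.95, 6.38 and 1.39 FPKM under Moderate IOP. All Moderate IOP libraries were above all others but spread widely among themselves. Its log2 fold-change against Control was 1.26 (0.44 to 2.09, FDR = 0.160), on 11.0 to 151 derived fragments, and of the 20 alternatives it was called only without Moderate IOP replicate 3. The 250 bases before its start (chr11:117969367-117969616, minus strand) are shown because they hold the STAT palindrome, in capitals from position -154, which the corresponding windows of Stat3, Pias1 and Pias3 do not hold.
Socs3: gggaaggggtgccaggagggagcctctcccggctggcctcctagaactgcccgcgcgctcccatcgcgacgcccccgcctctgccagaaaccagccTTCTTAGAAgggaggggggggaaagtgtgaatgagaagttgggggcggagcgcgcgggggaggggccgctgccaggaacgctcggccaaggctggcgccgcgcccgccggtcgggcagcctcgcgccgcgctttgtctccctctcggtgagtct

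RGC and glial markers moved in the same comparison as these STAT genes. In Moderate IOP against Control, limma called 4 of 14 RGC markers higher (Nefl, Nrn1, Stmn2 and Sncg), 2 of 9 tested Müller glia markers higher (Apoe and Rlbp1) and 2 of 10 tested amacrine markers lower (Slc6a9 and Gad2). The 11 Müller glia markers summed to 1057 to 1128 in Control, 1115 to 1162 in Mild IOP and 1183 to 1233 FPKM under Moderate IOP, and the 10 microglia or macrophage markers to 30.2 to 39.3, 26.5 to 40.9 and 44.9 to 50.4 FPKM. Dkk3, Clu and Car2 made up most of the Müller glia sum. Their means in Control and Moderate IOP were 485 and 423, 273 and 372, and 226 and 213 FPKM, while those of Rlbp1 were 4.46 and 14.5 FPKM. At an unadjusted limma p below 0.05, 5 Müller glia markers were higher and 0 lower in Moderate IOP against Control. The part of these cell types in the levels of Stat3, Socs2, Jak2, Ptpn11, Pias1 and Pias3 was not tested.

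Further down the Trk receptors, 35 of 36 listed adaptors and effectors were tested and none was called by limma against Control. At an unadjusted p below 0.05 there were 0 in Mild IOP, and 1 higher and 4 lower in Moderate IOP. From Mild IOP to Moderate IOP, Crk and Gab2, which encode adaptors that link Trk receptors to Rap1 and to phosphoinositide 3-kinase, fell. Crk stood at 25.1 ± 2.31 FPKM in Mild IOP and 15.2 ± 3.13 FPKM under Moderate IOP (log2 fold-change -0.70, SE 0.17, FDR = 0.0398), beside 20.4 ± 1.28 FPKM in Control. Gab2 stood at 7.09 ± 0.828 and 4.19 ± 0.151 FPKM (-0.63, SE 0.20, FDR = 0.0956), beside 6.92 ± 1.32 FPKM in Control. The Crk call was lost without Mild IOP replicate 2 or Moderate IOP replicate 1, and the Gab2 call, kept in 7 of 20 alternatives, with any 1 of the 9 libraries left out, no filter on low values, a fit of only the 2 groups compared, array weights or the replicate block.

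Of 13 partners of p75, all tested, 0 were called by limma against Control, with 0 higher and 2 lower in Mild IOP and 0 higher and 1 lower in Moderate IOP by the unadjusted p. Bex1 and Ngfrap1, which encode small proteins that bind p75, rose from Mild IOP to Moderate IOP. Bex1 was at 268 ± 52.6 and 461 ± 9.12 FPKM (log2 fold-change 0.80, SE 0.15, FDR = 0.0133) and Ngfrap1 at 334 ± 41.2 and 505 ± 22.5 FPKM (0.60, SE 0.12, FDR = 0.0176). Both lay lowest in Mild IOP, since the Control means were 370 ± 38.8 and 481 ± 39.2 FPKM, and both calls held under all 20 alternatives. Summed RGC markers had the same order of groups, and their part was not tested. Lists of neurotrophin processing (10 of 13 tested) and of other neurotrophic factors and receptors (12 of 17 tested) held 0 called genes in the 3 comparisons. At an unadjusted p below 0.05 the former had 3, 2 and 1 genes and the latter 2, 2 and 3 genes.

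The genes whose profile over the 9 libraries lay nearest to a member were found by the root mean square difference of centred log2 levels. Ntrk3 was nearest to Ing1 (0.101) and Rfesd (0.145), compared with 0.378 for the deviation of Ntrk3 from its own mean. Ing1 stood at 22.6, 16.4 and 13.5 FPKM on average in Control, Mild IOP and Moderate IOP. Ntrk2 was nearest to Ythdc1 (0.0866) and Spock2 (0.0901), Bdnf to Map7d1 (0.116) and Bag1 (0.128), and Cntfr to Nsg2 (0.102) and Zfp423 (0.109). Lifr was nearest to Lin7c (0.0986) and H3f3b (0.101), Il6st to Lrp12 (0.133) and Slc36a4 (0.149), Ngfr to Ntmt1 (0.233) and Gmpr (0.265), and Ntf3 to Mal2 (0.262) and Med18 (0.326). The comparison ran over 8179 or 8180 genes and is a description.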

How the data were processed

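RGC libraries of 3 groups, each a pool divided into 3 technical replicates, were grouped by the labels. The labels name FastQC, Trimmomatic, TopHat2, Cufflinks and Cuffdiff with mm10, while the study's methods give bowtie2 as aligner. Per locus, the deposited files hold FPKM with confidence bounds, estimated by the authors for each library on its own. Depth was not given with them. Derived fragments are (2 × FPKM / (upper bound − FPKM)) squared, which is too low for many abundant genes, and relative depth is their median ratio over 8078 genes with at least 50 fragments.

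Loci that share a symbol were summed, and median-of-ratios factors put the libraries on 1 scale. log2(FPKM + 1) of 13043 genes with a mean of at least 0.5 FPKM was fitted as group means over 9 libraries with limma 3.58.1 in R 4.3.3 (empirical Bayes, variance trend, two-sided), with Benjamini-Hochberg adjustment over all genes per comparison and calls at an FDR below 0.1. limma replaced the Cuffdiff test of the study, which needs aligned reads. 2 genes with a failed estimate were left out. Other steps used Python 3.11.15. On simulated data for Mild IOP against Control (13043 genes, 200 of them changed by a log2 of 1), the fit recovered 87 with 4 false calls.

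Members and lists were chosen with earlier results of these data known. Every member is named. Of the pathway lists, called genes are named, at most 3 per list and comparison by smallest FDR, with ligands and receptors that have values. Some list genes are not reported here and were left out of the list counts. Profile likeness used genes of at least 5 FPKM. Promoter windows are from RefSeq (GRCm38.p6). Alternatives varied scaling, pseudocount, filters, samples in the fit, variance trend, library weights, a replicate block and each left-out library.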

Additional observations from a re-analysis of the deposited data

Results flagged for a closer look

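The test of Moderate IOP against Mild IOP, which compares the effects of both levels of IOP elevation relative to the shared Control libraries, called 10 of 91 pathway genes (11.0%). That share is near the 10.2% of all genes tested and is no result about the pathway. On the log2 scale the difference was 0.82 for Stat3 (SE 0.21, limma FDR = 0.0468), 0.87 for Socs2 (SE 0.23, FDR = 0.0493), 0.60 for Ptpn11 (SE 0.19, FDR = 0.0872), -0.50 for Pias1 (SE 0.12, FDR = 0.0360) and -0.87 for Jak2 (SE 0.24, FDR = 0.0581) below gp130. For the p75 partners it was 0.80 for Bex1 (SE 0.15, FDR = 0.0133) and 0.60 for Ngfrap1 (SE 0.12, FDR = 0.0176). It was -0.70 for the sorting receptor Sorcs2 (SE 0.17, FDR = 0.0346), and for the Trk adaptors -0.70 for Crk (SE 0.17, FDR = 0.0398) and -0.63 for Gab2 (SE 0.20, FDR = 0.0956). The 2 groups did not overlap for any of these genes, as for 27.5% of all genes tested. The genes were picked by a call in the same libraries, so this separation adds nothing to the test. Of the 9 ligands and receptors, 8 were tested and none passed this test between the IOP levels, while Cntf was not tested.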

How the results depend on the processing

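The count of members called was 0 in each of the 3 comparisons under all 20 alternatives, the replicate block included. Ntf3 and Lifr were not tested at a mean of at least 1 FPKM, nor Ntf3 without Mild IOP replicate 2. Among members, the log2 fold-change of Ngfr in Moderate IOP against Control ran from -0.46 to 0.14 as libraries were left out, and was above 0 without Control replicate 1 (0.14), Moderate IOP replicate 1 (0.085) or Moderate IOP replicate 3 (0.13). For Moderate IOP against Mild IOP, the sign turned for Ntf3 with a pseudocount of 0.1 (0.23) and with array weights (0.0033), and its range with a library left out was -0.55 to 0.12 (above 0 without Moderate IOP replicate 1). That of Il6st was -0.28 to 0.090, above 0 without Mild IOP replicate 2. Gab2 in Mild IOP against Control was at -0.0419 with array weights and ran from -0.050 (without Control replicate 1) to 0.17 with a library left out. Socs2 in the same comparison ran from -0.28 to 0.077, above 0 without Control replicate 2 or Mild IOP replicate 1, and Ptpn11 from -0.26 to 0.034, above 0 without Control replicate 2. None of these values passed the test, and the cause was not tested.

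Over all genes, calls in Mild IOP against Control numbered 52, and 24 without a filter, 11 with only the libraries of both groups, 15 without a variance trend, 115 with array weights and 15 to 175 with 1 library left out. In Moderate IOP against Control they numbered 240, and 134, 144 and 61 to 286 with the 2-group fit, no trend and a library left out. In Moderate IOP against Mild IOP they numbered 1324, and 839 without a trend and 518 to 1398 with a library left out. Of these last calls, 917 were higher and 407 lower, against 731 and 662 without scaling and 804 and 596 with upper-quartile scaling.

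Same-numbered libraries deviated together with a mean correlation of 0.0124, and differently numbered ones with -0.0062. No pairing by number was seen, though a correlation over all genes tested cannot exclude a shared effect on some of them. With the replicate block, 25, 135 and 1120 genes were called in the 3 comparisons, members called stayed at 0, and Pias3 against Control and Gab2 against Mild IOP were not called.

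With technical replicates of 1 pool per group, differences between animals are not covered. Values under about 20 derived fragments (Ntf3, Clcf1, Ngfr in part) limit what depth can show.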
